A study of Homo sapiens with 33 samples.

Results

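C/D box snoRNAs are the small nucleolar RNAs that guide ribose methylation, and their genes were followed here through 15 RNA libraries of HepG2, an established cell line from a human liver carcinoma. The members were the gene identifiers whose symbol starts with SNORD and a digit, without the large imprinted families SNORD113 to SNORD116. The rule found 192 identifiers with 177 symbols among the 78932 identifiers in the files. The rule used names only and no measured value.

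A C/D box snoRNA carries the short C and D sequence boxes, which are bound by SNU13, NOP56, NOP58 and the methyltransferase fibrillarin (FBL). A guide stretch next to a D box pairs with ribosomal or spliceosomal RNA, and the paired base is methylated on its ribose. A few members, such as U3 (the SNORD3 genes), U8 (SNORD118), U13 (SNORD13), U14 (SNORD14) and U22 (SNORD22), act in the cutting and folding of the ribosomal RNA precursor instead of, or besides, guiding methylation. Most human C/D box snoRNAs are cut from introns of a host gene, often a gene for a ribosomal or nucleolar protein, while U3 genes have promoters of their own.

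The sorted libraries came from HepG2 cells separated into 6 fractions of the cell cycle, called G1, S1, S2, S3, S4 and G2, with 2 libraries in each (replicates 2 and 3), and were made with a stranded total RNA kit for very low inputs. The 3 bulk libraries (replicates 1 to 3) came from HepG2 cells and were made with a stranded mRNA kit after a separate column isolation. The labels give nuclear RNA as the molecule of both and name no drug, allele or separate culture, so a p-value here speaks only to how far these libraries differ among themselves, and that spread could be technical. The other 18 samples of the series are Repli-seq, a DNA assay of replication time, and were not analysed here.

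Levels are given as TPM, transcripts per 1e+06, a unit per length of the gene model and a share of each library. In libraries of pooled cells, fewer cells with an RNA and less of it per cell cannot be told apart. Library depth, read from the steps between TPM values, ran from about 6132630 to 18497500 reads in the sorted libraries, where S4 replicate 3 was the deepest and no other exceeded 9312640, and from 22341500 to 24424100 in bulk. Markers of hepatocytes summed to 3913 to 11387 TPM in the sorted libraries and 44977 to 45026 TPM in bulk, and 0 of the 8 were at 0 throughout. Markers of fibroblasts (4 genes) stayed at or under 0.841 TPM in every library, and those of endothelium (3 genes) at or under 2.72 TPM.

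None of the sequence sources used here holds the snoRNAs themselves, so the sequences shown are those around the start site of 6 host genes of abundant members, chosen after the levels were seen. Each line gives 40 bases before and 20 from the start site onward, read in the direction of the gene (RefSeq, GRCh38.p14). Capitals mark an unbroken run of C and T that begins with a C at the start site, the form of the 5′ terminal oligopyrimidine genes of translation.
RPS3, host of SNORD15A and SNORD15B, chr11:75399478-75399537, plus strand: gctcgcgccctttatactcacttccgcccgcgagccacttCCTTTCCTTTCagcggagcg
RPS12, host of SNORD100 and SNORD101, chr6:132814529-132814588, plus strand: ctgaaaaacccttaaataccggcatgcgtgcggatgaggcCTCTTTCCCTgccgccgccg
SNX5, host of SNORD17, chr20:17968775-17968834, minus strand: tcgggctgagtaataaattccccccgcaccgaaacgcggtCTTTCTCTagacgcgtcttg
NCL, host of SNORD82 and SNORD20, chr2:231464465-231464524, minus strand: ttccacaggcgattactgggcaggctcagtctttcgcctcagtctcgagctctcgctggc
WDR43, host of SNORD92, SNORD53 and SNORD53B, chr2:28894627-28894686, plus strand: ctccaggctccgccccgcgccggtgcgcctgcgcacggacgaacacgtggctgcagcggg
TNPO2, host of SNORD41, chr19:12723913-12723972, minus strand: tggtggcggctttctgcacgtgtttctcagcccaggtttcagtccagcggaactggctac

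Among the 71 of 90 host genes that have a start site in the RefSeq table, 25 (35.2%) had a C at a start site followed by at least 4 bases of C or T, searched on the strand of the gene. The same letters stood at a start site of 5.14% of all 27305 genes in that table. Hosts with at least 1 member above 0 had them in 11 of 39 cases (28.2%), and hosts whose members were all listed at 0 had them in 14 of 32 (43.8%). A match says only that these letters are at the annotated start.

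Of the 192 members, 84 were above 0 in at least 1 sorted library and 52 in all 12. A mean of at least 1 TPM over the sorted libraries was reached by 70 members, at least 100 TPM by 43. The other 108 members (56.2%) were listed at 0 in all 15 libraries. A listed 0 need not mean absent RNA, and the cause of these zeros was not tested. ZNHIT3, a gene of C/D snoRNP assembly, was also listed at 0 in 15 of 15 libraries. AATF, a gene of nucleolar RNA processing, was above 0 in S1 replicate 3 alone, at 0.00855 TPM. U8 (SNORD118), U13 (SNORD13), both identifiers named SNORD22 and SNORD48 were among the members at 0.

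The members above 0 lay in several kinds of host gene, counted over the 161 members with a single RefSeq position. Members inside protein-coding genes outside the translation machinery were above 0 in 45 of 69 cases and held 50.6% of all C/D box snoRNA TPM in the sorted libraries. Members inside genes for ribosomal proteins or translation factors were above 0 in 17 of 46 cases and held 21.2%. Members inside noncoding hosts, among them the SNHG genes that serve as snoRNA hosts, were above 0 in 3 of 33 cases and held 0.375%. Most of that share, 0.356%, was SNORD88A inside the transcribed pseudogene C19orf48P, not an SNHG gene. The U3 copies with such a position were above 0 in 7 of 9 cases and held 27.9%. Of the 31 members without one, 11 were above 0 and held 0.0420%, and both identifiers of the U3 gene SNORD3D, which belong there, were at 0. By RefSeq length, the members above 0 were 21 of 70 at up to 75 bases, 18 of 41 at 76 to 90 bases, 22 of 34 at 91 to 130 bases and 12 of 16 above that.

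Together the members held 8.45% ± 1.52 (SD, n = 12) of all TPM in sorted libraries, and 2.43% of the recovered reads. H/ACA box snoRNAs and scaRNAs, the pseudouridine guides and their relatives in Cajal bodies, held 6.87 to 13.4% of the TPM in the same libraries. In G1 the C/D share was 7.05% in replicate 2 and 10.6% in replicate 3. In S1 it was 6.51% and 8.93%, in S2 5.81% and 9.55%, in S3 7.69% and 9.20%, and in S4 8.46% and 9.62%. In G2 it was 7.65% and 10.4%. Replicate 3 was the higher in each fraction, and the ranges of the 6 fractions overlapped with each other.

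**Figure D1:**
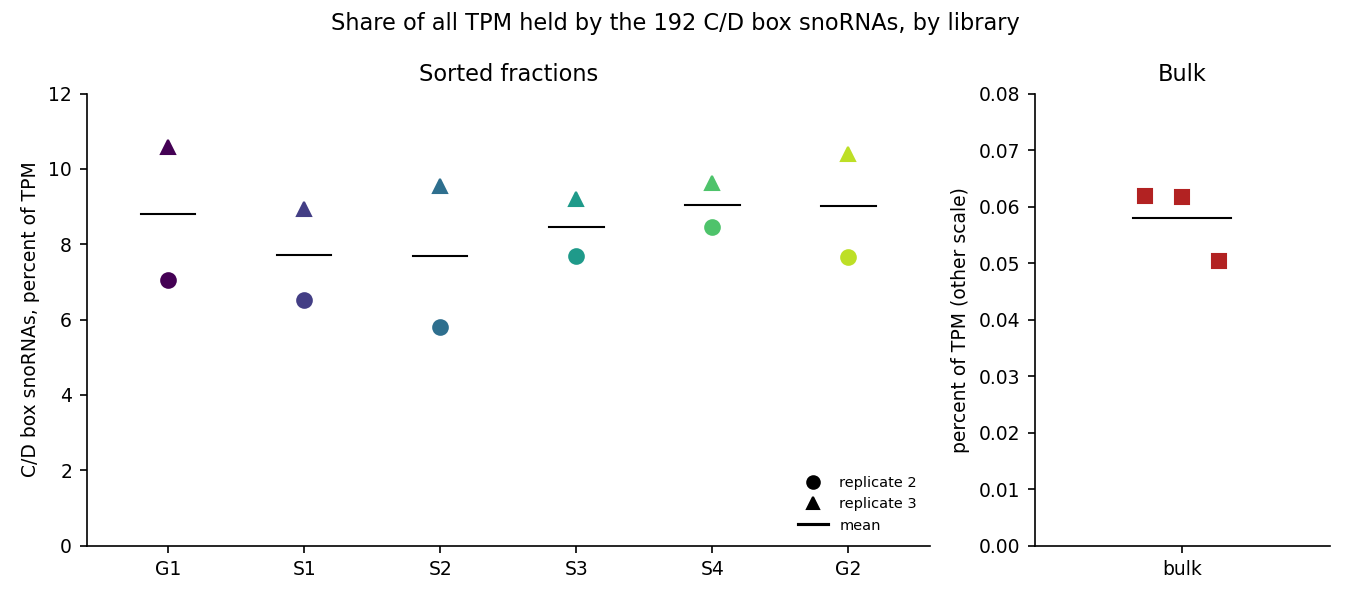
Percent of all TPM held by the 192 C/D box snoRNAs in each library, by sorted fraction (left) and in bulk (right, on another scale). Circles are replicate 2, triangles replicate 3, squares the bulk libraries and lines the means; the sorted libraries lie between 5.81 and 10.6%, with replicate 3 above replicate 2 in each fraction, and the bulk libraries between 0.0504 and 0.0620%.

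U3 led the list. SNORD3A, which is transcribed from its own promoter (chr17:19188016-19188232), stood at 18931 and 33380 TPM in G1, 17481 and 23207 in S1, 9289 and 24924 in S2, 21347 and 18044 in S3, 24732 and 26080 in S4, and 20809 and 17683 in G2, replicate 2 first. The highest library, G1 replicate 3, was 3.59 times the lowest, S2 replicate 2. Both S4 libraries lay above those of S1, S3 and G2, while the ranges of G1 and S2 held or met them. The gene model behind these TPM values is 699 bases long, while RefSeq gives SNORD3A 217 bases. Divided by the RefSeq length, its mean of 21326 TPM would become 68694. That value counts all reads of the long model and is not rescaled to the library total, so it is not a TPM. The second U3 copy, SNORD3B-1, averaged 2105 TPM ± 772 (SD, n = 12), again over a long gene model of 758 bases. SNORD3B-2 and SNORD3C averaged 59.0 and 59.1 TPM, with coefficients of variation of 145% and 90.8%. U3 copies are nearly identical in sequence, so the division of reads among them is uncertain.

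SNORD17, inside SNX5, a sorting nexin gene (chr20:17962710-17962946), was the second member at 19538 TPM ± 4230 (SD, n = 12). Its values were 17578 and 22096 TPM in G1, 12688 and 18693 in S1, 15681 and 21966 in S2, 16986 and 22562 in S3, 18131 and 23392 in S4, and 16428 and 28248 in G2. SNORD17 was higher in replicate 3 than in replicate 2 in each fraction, and no fraction stood clear of the others. SNORD15B, inside the ribosomal protein gene RPS3 (chr11:75404421-75404566), followed at 9140 TPM ± 1860, with a lowest library of 6047 TPM in S1 and a highest of 12988 TPM in G2. SNORD41, inside TNPO2, a nuclear import receptor gene (chr19:12706449-12706518), averaged 4605 TPM ± 1188.

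These leading members held most of the signal. SNORD3A, SNORD17 and SNORD15B together took 59.1% of the members' TPM and 82.2% of their reads in the sorted libraries, and the 15 most abundant took 85.3% and 95.3%. Places 5 to 15 ranged from 2439 TPM (SNORD46) to 1055 TPM (SNORD92 in WDR43). Among them SNORD89, inside the ubiquitin ligase gene RNF149, was the steadiest, at 2150 TPM ± 261 with a coefficient of variation of 12.1%. Over the 43 members at 100 TPM or more that coefficient had a median of 21.0% and a highest value of 60.3%, whereas over the 27 members from 1 to 100 TPM its median was 100.2%.

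**Figure D2:**
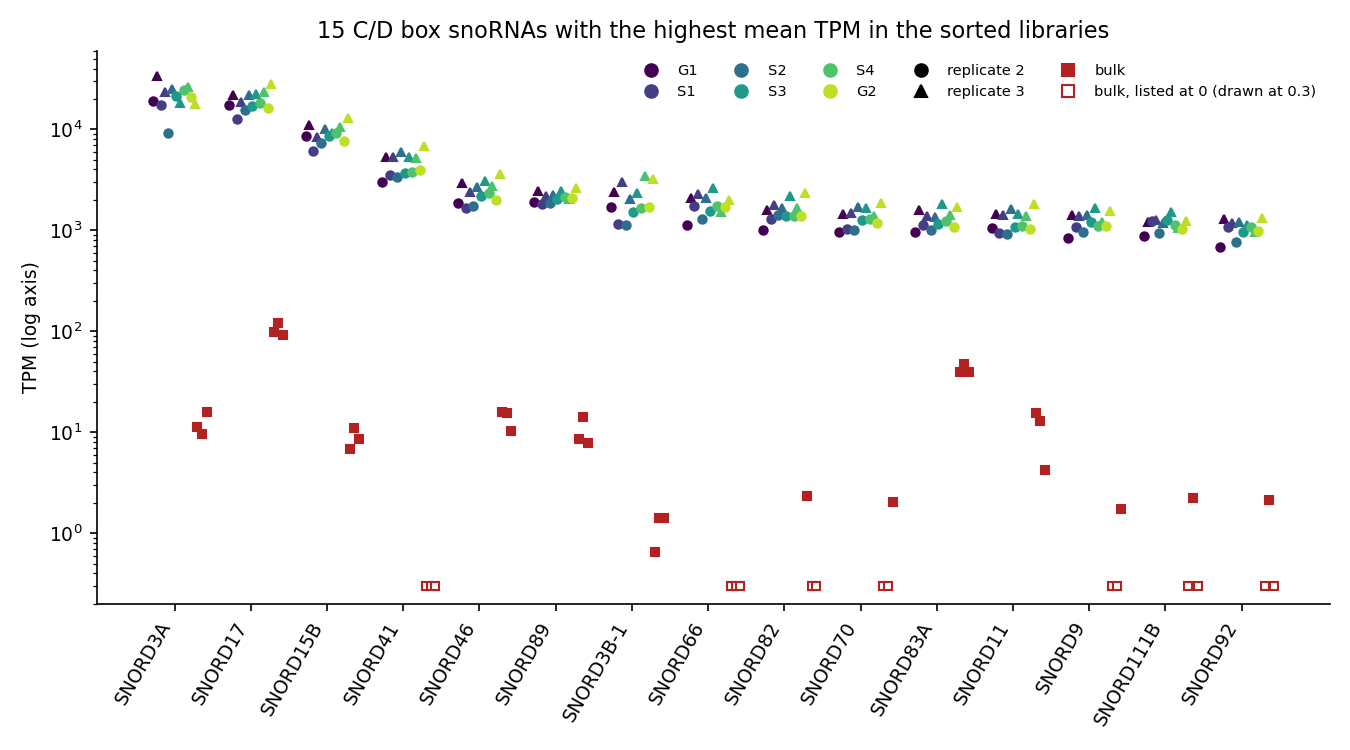
TPM (log axis) of the 15 C/D box snoRNAs with the highest mean over the sorted libraries. Coloured points are the 12 sorted libraries (circles replicate 2, triangles replicate 3) and red squares the 3 bulk libraries, open where listed at 0; SNORD3A and SNORD17 average 21326 and 19538 TPM in the sorted libraries, and bulk values lie below every sorted value of the same member.

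No member changed among the 6 fractions by limma on log2(TPM + 1). Of the 70 members tested, 0 passed an adjusted p of 0.05 for any difference among the fractions, against 0.0176% of the 17022 genes tested. The count was also 0 for G2 against G1 (0.00587% of all genes), for the mean of S1 to S4 against G1 (0% of all genes), for G2 against the same mean (0.00587%) and for the slope over S1 to S4 (0%). At an unadjusted p under 0.05 the counts of members were 4, 3, 2, 2 and 3 in that order, and those of all genes 470 (2.76%), 469 (2.76%), 891 (5.23%), 289 (1.70%) and 500 (2.94%). With recovered reads in limma's voom the counts of members were 0 in all 5, and so were those of all genes. With 2 libraries in each fraction these counts do not show that the members were equal between fractions.

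The intervals say how far the abundant members could have moved. From G1 to G2 the 43 members at 100 TPM or more differed by −0.39 to 0.77 on the log2 scale, with a median of 0.23 and a median standard error of 0.38. The difference was above 0 for 38 of the 43, and the 95% interval held 0 for 43 of 43. Over the 70 members tested the median was 0.22, beside −0.08 over all genes tested. Leaving out G1 replicate 2 turned that median to −0.08, and leaving out G1 replicate 3 took it to 0.52. Each of these sets G2 with both replicates against 1 replicate of G1, and in G1 replicate 3 was the higher for 42 of the 43 abundant members. Within replicate 2 the median log2 ratio of G2 to G1 over the 43 abundant members was 0.33, with 39 higher in G2, and within replicate 3 it was 0.13, with 31 higher. The median from G1 to the mean of S1 to S4 was 0.10 (all genes −0.20) and became −0.21 without G1 replicate 2 and 0.43 without G1 replicate 3. Within replicates another measure was taken over the 43 abundant members, the log2 ratio of the mean TPM of S1 to S4 to the TPM of G1. Its median was 0.25 in replicate 2, with 34 higher in S, and −0.03 in replicate 3, with 17 higher. Median-ratio scaling of the libraries took the median over the 70 members to 0.30 and those above 0 from 42 to 57, while the median of all genes moved to −0.03. With recovered reads the members' median was likewise 0.30, with 59 above 0, and that of all genes −0.02. The median from the mean of S1 to S4 to G2 was 0.15 (all genes 0.12), became −0.08 without G2 replicate 3, and was 0.01 after median-ratio scaling (all genes 0.00369). For the slope over S1 to S4 the median was 0.0233 with 41 above 0 (all genes 0.0406), and turned to −0.0186 with 29 above 0 after that scaling and to −0.0387 with 25 above 0 with recovered reads.

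**Figure D3:**
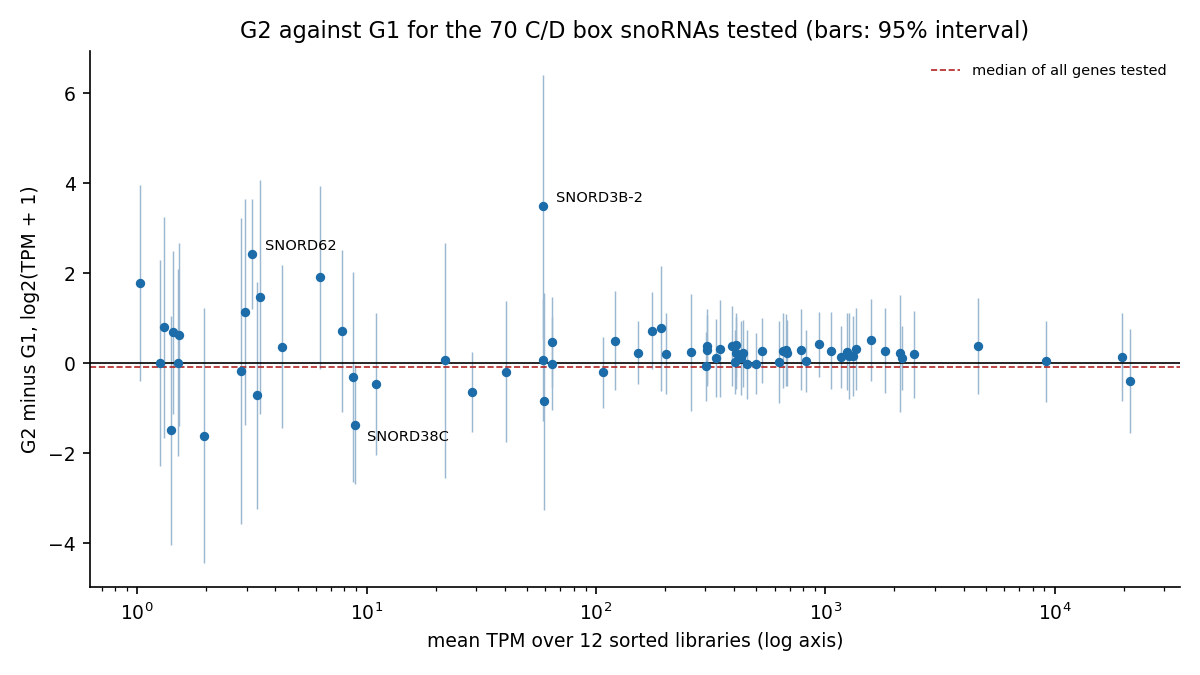
Difference between G2 and G1 on the log2(TPM + 1) scale with its 95% interval for each of the 70 C/D box snoRNAs tested, against the mean TPM over the sorted libraries (log axis). The red dashed line is the median of all genes tested (−0.08); the 43 members at 100 TPM or more lie between −0.39 and 0.77, and wide intervals belong to members of low level.

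The members with the lowest unadjusted p were mostly rare, and their values are given as such. SNORD62 was listed at 0 in both G1 libraries and lay between 1.21 and 10.3 TPM in the other 10, which together held 25 reads. Its difference from G1 to G2 was 2.43 ± 0.55 log2 units (SE), with an adjusted p of 1 by limma, and from G1 to S1 to S4 it was 1.96 ± 0.43 with an adjusted p of 0.816. A pseudocount of 0.1 in place of 1 gave the latter a limma adjusted p of 0.0464, the 1 member call of that setting among 4 calls over all genes. SNORD38C had the steepest slope from S1 to S4, 1.16 ± 0.19 log2 units a step with an unadjusted limma p of 0.000118 and an adjusted p of 0.569. Its 2 replicates read 0 and 1.51 TPM in S1, 1.89 and 6.20 in S2, 20.5 and 17.4 in S3, 10.7 and 16.1 in S4, but 17.1 and 7.16 in G1 and 5.38 and 2.48 in G2. SNORD38C was thus nearly as high in 1 G1 library as in S3, and its 12 values rested on 62 reads.

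SNORD14E, a U14 copy inside the chaperone gene HSPA8, was the abundant member with the lowest unadjusted p from S1 to S4 to G2. It stood at 341 and 532 TPM in G1, 295 and 392 in S1, 307 and 356 in S2, 319 and 288 in S3, 521 and 414 in S4, and 523 and 599 in G2. Both G2 libraries lay above all 8 S libraries, S4 replicate 2 came close, and G1 overlapped with both. The difference was 0.66 ± 0.25 log2 units (SE) with an adjusted p of 1. The other abundant U14 copy, SNORD14A inside RPS13, averaged 827 TPM ± 117, with 847 and 977 TPM in G2 inside the range of the S libraries. SNORD3B-2 differed from G1 to G2 by 3.48 ± 1.30, with 6.81 and 16.5 TPM in G1. G2 replicate 2 had 238 TPM and G2 replicate 3 a lower value, still above both G1 libraries, yet S1 replicate 3 also had 237 TPM.

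Many members were higher in replicate 3 than in replicate 2. Among the 52 members above 0 in all 12 sorted libraries, 22 (42.3%) were higher in replicate 3 in 6 of 6 fractions and 0 were lower in 6 of 6. The same was true of 18.3% of the 19430 genes above 0 in those libraries. At 100 TPM or more, the median log2 ratio of replicate 3 to replicate 2 was 0.66 in G1, 0.35 in S1, 0.49 in S2, 0.44 in S3 and 0.36 in G2, but −0.01 in S4. Transcripts of the mitochondrial genome went the other way, at 12.6% ± 2.98 of TPM in replicate 2 and 4.68% ± 2.86 in replicate 3 (SD, n = 6). Their part in the result was not tested. Without mitochondrial transcripts the members held 8.21% ± 0.818 of the TPM in replicate 2 and 10.2% ± 0.557 in replicate 3. The largest mean differences were those of SNORD58 (1.96 log2 units), SNORD3B-2 (1.35) and SNORD15A (1.18), and the smallest those of SNORD62A (−0.44), SNORD71 (0.07) and SNORD117 (0.10).

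Where several members shared a host, their order was mostly the same from library to library. Members of different hosts were not compared in this way, so a steady order is not shown to be particular to a shared host. The NOP58 gene, which encodes a core protein of the C/D box particle, held SNORD70 at 1359 TPM ± 287, SNORD11 at 1271 ± 287 and SNORD11B at 409 ± 70.5 (SD, n = 12), while SNORD70B was listed at 0. SNORD70 exceeded SNORD11B in every library, by 2.60 to 3.66 times, while SNORD70 and SNORD11 exchanged places, with ratios from 0.917 to 1.19. In WDR43, a gene of the small-subunit processome, SNORD92 stood at 1055 TPM ± 194, SNORD53B at 678 ± 103 and SNORD53 at 427 ± 80.6, in that order in 12 of 12 libraries. In RPS12 SNORD100 averaged 787 TPM ± 167 and SNORD101 656 ± 129.

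In GNL3, the gene of the nucleolar protein nucleostemin, SNORD69 averaged 675 TPM ± 124, SNORD19C 201 ± 50.7 and SNORD19 40.4 ± 22.9, and SNORD19B was listed at 0. The gene models of SNORD19 and SNORD19C are 68 and 76 bases long where RefSeq gives them 76 and 67, so which of the pair a value belongs to is uncertain. In TSR1, a gene of ribosome assembly chosen after its values were seen, SNORD91B averaged 405 TPM ± 57.1 and SNORD91A 64.5 ± 18.1. Over 15 such pairs in 9 hosts, both members at 20 TPM or more, the standard deviation of the log2 ratio over the 12 libraries had a median of 0.226 and ran from 0.104 (SNORD92 and SNORD53B) to 0.928 (SNORD19C and SNORD19). In 13 of the 15 pairs the member with the higher mean over the 12 libraries was higher in 12 of 12. The same libraries named the higher member, so this count is no test of a steady order. Some members stand in several of these pairs, and no pairs from different hosts were set beside them.

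**Figure D4:**
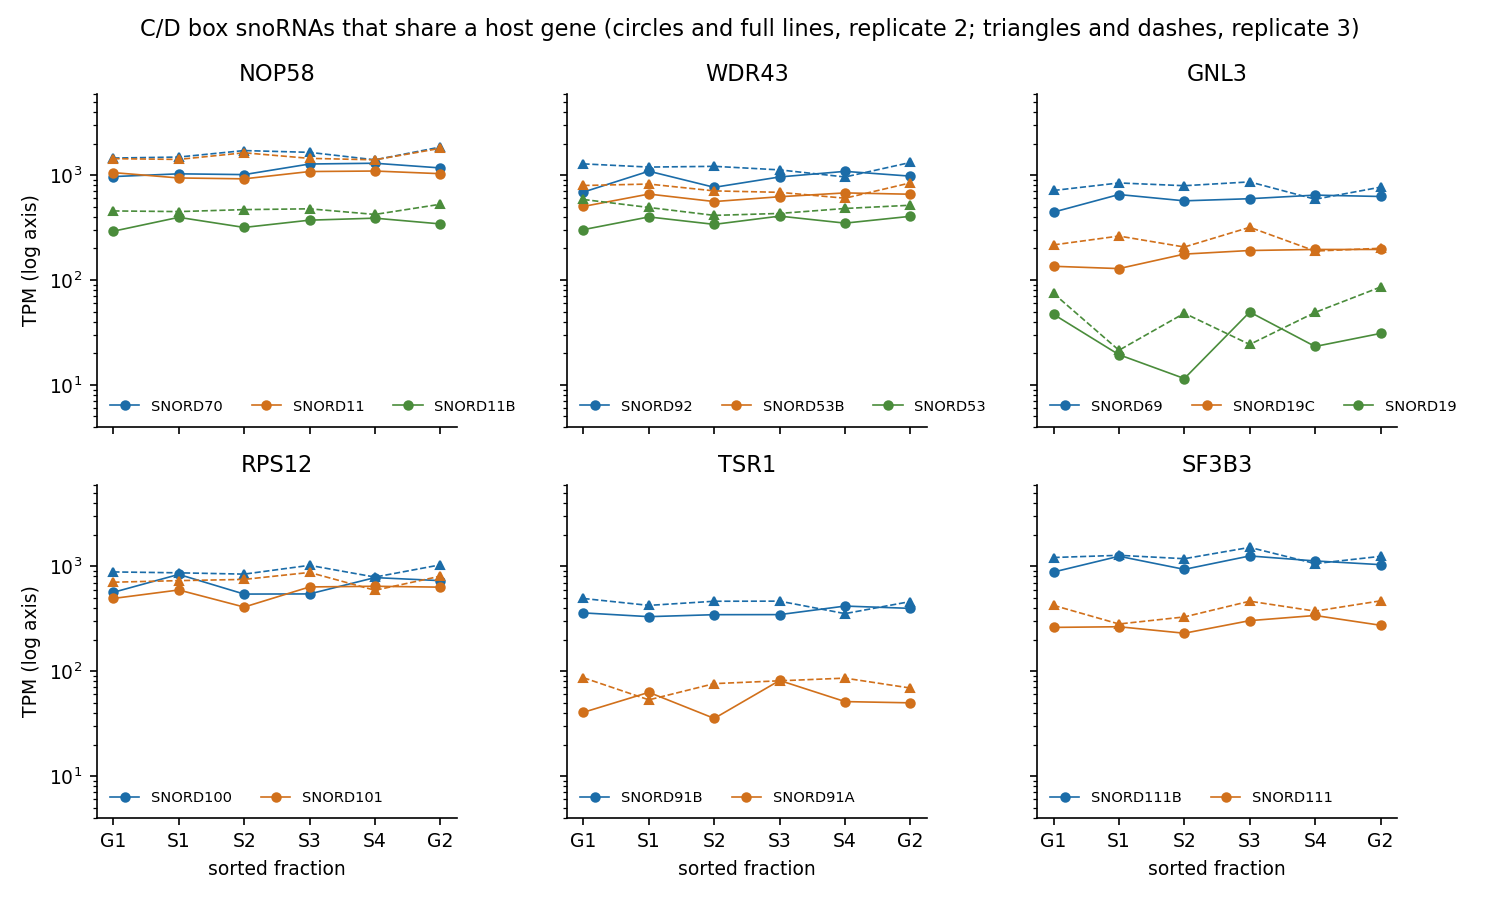
TPM (log axis) of C/D box snoRNAs that share a host gene, in 6 hosts, across the 6 sorted fractions. Circles with full lines are replicate 2 and triangles with dashed lines replicate 3; the members of WDR43 keep the order SNORD92, SNORD53B, SNORD53 in 12 of 12 libraries, while SNORD70 and SNORD11 of NOP58 lie within 0.917 to 1.19 times of each other.

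A shared host did not always go with a shared level, in examples partly chosen after their values were seen. In RPS3 SNORD15B averaged 9140 TPM and SNORD15A, its relative in another part of the same gene, 10.99 TPM ± 5.91, with 3.59 TPM in its lowest and 20.4 TPM in its highest library. In RPL3 SNORD83A averaged 1320 TPM ± 277, SNORD43 2.82 TPM, and SNORD83B was listed at 0. The nucleolin gene NCL held SNORD82 at 1588 TPM ± 371 and SNORD20 at 0. Hosts with 3 or more members numbered 18, and 18 of their 61 members were above 0, against 48 of 89 members in hosts with 1 or 2. In 9 of the 18, among them NOP56, RPL4, RPL7A, RPL13A and SNHG1, each member was listed at 0 although NOP56 itself averaged 240 TPM ± 99.2 and SNHG1 248 TPM ± 83.1 in sorted libraries. RPL7A, a highly expressed ribosomal protein gene in most cells, was itself listed at 0.129 TPM, and the part of the counting of overlapping genes in these values was not tested.

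Across the members above 0 in all 12 sorted libraries, length and host level were set beside the member's level. Spearman's rho between mean TPM and the length of the gene model was 0.17 over 52 members, and between the TPM of a member and that of its host 0.26 over 47. In bulk the latter was 0.52 over the same 47. These values describe members measured in the same libraries and are given without a test.

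The bulk libraries held far less of these RNAs. C/D box snoRNAs took 0.0580% ± 0.00657 of the TPM in bulk (SD, n = 3) and 0.00183% of the reads, which came to 456, 431 and 382 reads in the 3 libraries. H/ACA box snoRNAs and scaRNAs took 0.0211 to 0.0325% there. Of the 69 members tested by limma over 15 libraries, 59 were higher in the sorted libraries and 0 lower at an adjusted p of 0.05. Of the 17174 genes tested, 23.1% were higher and 80.9% passed in either direction. The filter was a mean of at least 1 TPM over the 15 libraries, 12 of them sorted, and 43 of the 69 members were above 0 in bulk. Members could thus pass it through the sorted libraries alone, which partly sets these counts. Without the filter 57 of 84 members were higher and 0 lower, beside 6.44% of all genes higher. The median difference of the members was 5.29 log2 units, beside −0.99 over all genes, and in 50 members each sorted library lay above each bulk library, as for 15.3% of all genes. The 10 members that did not pass averaged few TPM, such as SNORD13E, at 3.32 TPM in sorted and 1.10 TPM in bulk. Sorting, RNA isolation and library kit all differ between these groups and cannot be told apart.

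Of the members, 43 were above 0 in at least 1 bulk library and 41 only in sorted libraries. SNORD41 was listed at 0 in 3 of 3 bulk libraries. Against a floor of 3 reads over the 3 bulk libraries together, its sorted mean was at least 1850-fold higher. The same bound was at least 790-fold for SNORD66, inside the translation initiation gene EIF4G1, and at least 289-fold for SNORD90, inside RC3H2. SNORD3A read 11.3, 9.55 and 15.9 TPM in bulk, 1743 times less than its sorted mean, with a limma difference of 10.62 ± 0.34 log2 units (SE) and an adjusted p of 1.47e-10. SNORD15B read 6.76, 11.1 and 8.57 TPM, 1036 times less.

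The order of members changed between the kinds of library. SNORD17 was the highest member in bulk, at 99.3, 121.8 and 92.8 TPM, and second in the sorted libraries. Next in bulk came SNORD4A in RPL23A at 53.1 TPM ± 9.46, SNORD100 at 52.6 ± 7.10, SNORD62B in PRRC2B at 47.9 ± 13.2, SNORD6 in TAF1D at 46.0 ± 5.26 and SNORD83A at 42.3 ± 4.52 (SD, n = 3). Together these 6 members held 59.7% of the members' TPM in bulk. SNORD4A ranked 40 in the sorted libraries, where it averaged 176 TPM ± 54.5, so that its ratio of sorted to bulk was 3.31, with a limma difference of 1.66 ± 0.22 and an adjusted p of 2.28e-05. SNORD62B and SNORD6 had ratios of 6.33 and 6.62, SNORD100 of 14.96 and SNORD83A of 31.2.

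Among the 25 members with more than 3 bulk reads in total, the ratio ran from 3.31 (SNORD4A) to 1807 (SNORD3B-1) with a median of 38.1, and was under 10 in 5 and over 100 in 7. Spearman's rho between the sorted and the bulk mean was 0.16 over the 41 members above 0 in all sorted libraries and in bulk. The hosts of the 6 members highest in bulk differed in their own level there. RPS12 stood at 7635 TPM, RPL3 at 2474, RPL23A at 1818 and SNX5 at 503, but PRRC2B at 81.5 and TAF1D at 70.4. In the sorted libraries the same hosts averaged 174, 77.0, 88.9, 100.2, 26.4 and 63.3 TPM, and the part of host RNA in the members' values was not tested.

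**Figure D5:**
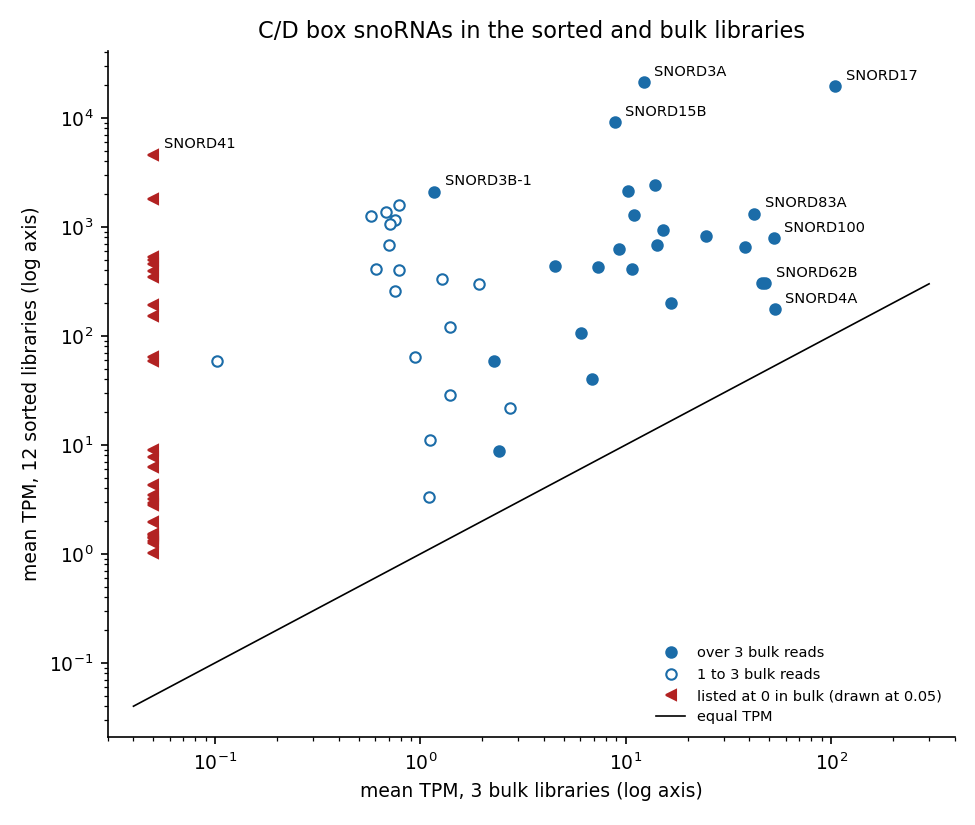
Mean TPM in the 12 sorted libraries against mean TPM in the 3 bulk libraries (log axes) for the 70 C/D box snoRNAs with a mean of at least 1 TPM over the sorted libraries. Full circles have over 3 bulk reads in total, open circles 1 to 3, and triangles are listed at 0 in bulk. The line marks equal TPM. Each member lies above the line, from 3.31 times (SNORD4A) to 1807 times (SNORD3B-1) among the full circles. Members were chosen by their sorted mean, so the triangles lie above the line by that choice alone.

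Genes for the proteins of the C/D box particle were followed beside the members. Of 25 tested genes from a list of 27 for core proteins, assembly, U3 partners and maturation, 0 passed in any of the 5 comparisons among fractions. Between sorted and bulk libraries 23 passed, of which 22 were lower in the sorted libraries and 1 higher, where 57.8% of all genes were lower and 23.1% higher. The median difference of the list was −1.82 log2 units, beside −0.99 over all genes. The higher gene was PARN, a nuclease that trims RNA tails, at 1.58 TPM ± 0.439 in sorted and 0.507 ± 0.792 in bulk libraries, which overlapped. Its limma difference was 0.87 ± 0.28 log2 units (SE) with an adjusted p of 0.0116. The limma adjusted p was 0.0878 without bulk replicate 1 and 0.0721 without bulk replicate 2. It was 0.0622 with the replicate number as a block, a limma fit that also left out bulk replicate 1. With the block 23 genes of the list were lower and 0 higher. SNU13, which binds the C/D motif first, averaged 9.38 TPM ± 1.18 in sorted and 172 ± 4.83 in bulk. NOP58 averaged 62.9 TPM ± 21.0 and 160.3 ± 4.23, a difference of −1.41 log2 units that was 0.14 with recovered reads and their scaling. NOP56 did not pass at 240 TPM ± 99.2 in sorted and 341 ± 4.23 in bulk, nor did FBL at 3.61 ± 1.61 and 1.80 ± 0.469. In bulk FBL was thus listed far below the other core genes, and the part of the counting of overlapping genes in its values was not tested. Median-ratio scaling changed this count to 16 genes, 13 lower and 3 higher, beside 35.4% of all genes lower and 39.9% higher, and moved the median of all genes to 0.19 and that of the list to −0.43. Under it 58 members were higher and 0 lower.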

How the data were processed

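RNA of 12 sorted and 3 bulk HepG2 libraries was used, grouped by the labels. The deposited files hold log2 values, log2(TPM + 1), since back-transformed values summed to 1e+06 in each library. The design had assumed TPM, and its tests were kept. Tools listed in the submitters' processing notes are HISAT2, BWA, SAMtools, Trimmomatic and cutadapt, with the build hg38. The program and annotation that gave the gene values, and the handling of overlapping genes, are not stated in the sources used here.

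Read counts and model lengths were recovered from TPM steps in 50309 of the 50310 genes that 3 or more libraries list above 0. A recovered read may stand for a pair. A host is the shortest RefSeq gene (GRCh38.p14) spanning a member, with no check of strand, which the design had foreseen. A single position was found for 161 members and a host for 150.

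The main test was limma 3.58.1 with an intensity trend in R 4.3.3 on log2(TPM + 1), pseudocount 1, for genes averaging 1 TPM or more, Benjamini-Hochberg adjusted over all genes, threshold 0.05, and no term for the replicate. The fits were tested on simulated data. Differences on this scale understate the change of low genes. The members and lists were chosen with earlier results of these data known. Named members were the 15 highest in sorted and 6 highest in bulk libraries, the lowest p-values where fewer than 3 passed, hosts with 3 or more members, U3, U8, U13, U14, U22 and SNORD48, and the 3 largest and 3 smallest replicate differences. Others, such as SNORD15A, SNORD20, SNORD90 and SNORD101, were chosen after their values were seen. The leukocyte marker list and the members of 1 host gene as a group are not reported here.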

Additional observations from a re-analysis of the deposited data

How the results depend on the processing

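Across the alternatives and with each library left out in turn, 0 members passed in the 5 comparisons among fractions, with 1 exception. A pseudocount of 0.1 called 1 member, SNORD62, for S1 to S4 against G1, where 4 of all genes passed. Over these 5 comparisons the alternatives that kept all libraries called 0 to 28 of all genes. The members higher in sorted than in bulk libraries numbered 56 to 63, but the members tested and the share of all genes changed with the setting. They were 56 of 56 with a mean TPM of at least 5, beside 13.6% of all genes higher. Without the filter they were 57 of 84, beside 6.44%, and with recovered reads 63 of 69, beside 45.5%. With single libraries left out, the members' median log2 difference ran from −0.08 to 0.52 for G2 against G1, −0.21 to 0.43 for S1 to S4 against G1, −0.08 to 0.36 for G2 against S1 to S4 and −0.03 to 0.07 for the slope. For sorted against bulk it ran from 5.25 to 5.64, beside 6.24 with a pseudocount of 0.1, 4.28 without the filter, 6.37 with a mean TPM of at least 5, 6.39 with median-ratio scaling and 7.38 with recovered reads, where the cause was not tested. The members' share was 2.43% of reads in sorted and 0.00183% in bulk libraries, since reads are not divided by gene length, and 0.0705% of TPM in bulk without mitochondrial genes.

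For sorted against bulk, the replicate block was fitted without bulk replicate 1. Its median of 5.64 and its PARN difference of 0.64 log2 units were also those of the fit that only left out that library. The block fits changed no count of members. Among the protein genes the call of PARN ended with the block, as it did when bulk replicate 1 or 2 was left out. Deviations of libraries with the same number correlated at 0.308 to 0.379 over all genes and at −0.150 to 0.387 over the members. Libraries with the same number thus deviated together over all genes in 15 of 15 pairs of fractions. The labels do not say what a number marks and a comparison between fractions has 2 pairs, so the block was kept as an alternative, with the values within each replicate beside it.

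Some core protein genes changed sign, and the cause was not tested. With single libraries left out, NOP58 ran from −0.73 to 0.58 for G2 against G1 and −0.46 to 0.85 for G2 against S1 to S4. NOP56 ran from −0.68 to 0.85 for G2 against G1, −0.471 to 0.0205 for S1 to S4 against G1 and −0.45 to 1.08 for G2 against S1 to S4. FBL ran from −0.12 to 0.92 for S1 to S4 against G1, −0.32 to 0.67 for G2 against S1 to S4 and −0.18 to 0.18 for the slope, and SNU13 from −0.00232 to 0.0357 for G2 against S1 to S4. With median-ratio scaling NOP58 gave 0.00208 for G2 against G1, SNU13 0.0341 for S1 to S4 against G1 and −0.10 for G2 against S1 to S4, and NOP56 0.80 for sorted against bulk. With recovered reads the same values were 0.0235, 0.0448, −0.11 and 0.94, with 0.00329 for NOP56 in S1 to S4 against G1 and 0.14 for NOP58 in sorted against bulk. Without mitochondrial genes SNU13 gave −0.0125 for G2 against S1 to S4. Depth limits the bulk values, where all members shared 382 to 456 reads in each library.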
